A study of Drosophila melanogaster with 12 samples.

Results

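The genes described here encode odorant-binding proteins of the fruit fly Drosophila melanogaster. They were chosen by symbol, as the rows of the count table named Obp plus a digit, leaving out Obp99a, which gave 43 of 15222 genes. Their transcripts were counted by RNA sequencing in fat body, the organ that stores fat and glycogen and makes most proteins of the insect blood, taken from female larvae at the wandering stage. The 4 groups of 3 libraries were InRi on 0.7 M sucrose, control on 0.7 M sucrose, InRi on 0.15 M sucrose and control on 0.15 M sucrose. All larvae grew at 25 °C and inherited UAS-Dcr2 and r4-GAL4, a driver of the fat body, from their mothers. InRi larvae also had UAS-InRi from stock 992, a single construct that produces double-stranded RNA against the insulin receptor gene InR, and the fathers of control larvae were of the w1118 stock 60000. Tissue was sheared and collected by centrifugation as a bulk preparation. The labels do not say how many larvae went into a library or whether libraries came from separate cultures. The p-values rest on the spread of libraries within their groups, which may be technical. In the main test this spread was estimated over all 4 groups together.

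Odorant-binding proteins are small secreted proteins, held in shape by disulfide bonds, that carry hydrophobic ligands such as odours, pheromones and fatty acids through watery fluids. They are best known from the fluid around olfactory and gustatory neurons, where support cells secrete them. Several are also made outside the sense organs, in glia, gut, reproductive glands and fat body. The genes lie in tandem clusters across the genome.

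The libraries held 872755 to 7114144 counts. Levels are given in CPM, counts per 1e+06 on library sizes scaled by TMM, with mean ± SD over n = 3 libraries, and libraries are listed in the order of replicates 1, 2 and 3. InR, the target of the construct, had higher levels under the InRi label than in control on both diets. Its range for larvae on 0.7 M sucrose was 109 to 163 CPM with InRi against 45.4 to 56.4 CPM in control. For larvae on 0.15 M sucrose the ranges were 116 to 151 CPM with InRi and 26.0 to 61.1 CPM in control. Counts per gene cannot tell reads of the construct, if any, from those of the gene itself. Whether the construct lowered InR was therefore not tested. Of 10 fat body markers, 0 were at 0 counts, and their levels summed to 161444 to 357093 CPM per library. Replicate 2 of control on 0.15 M sucrose stood apart, with counts for 7628 genes against 9214 to 11312 in the other libraries, and with 10 muscle markers at a summed level of 15290 CPM against 1591 to 5840 CPM elsewhere. Salivary gland markers summed to 8.70 to 111 CPM in InRi and 2716 to 5786 CPM in control on 0.7 M sucrose, and to 51.9 to 1720 CPM in InRi and 1411 to 2789 CPM in control on 0.15 M sucrose. The 1720 CPM came from replicate 2 of InRi on 0.15 M sucrose, against 51.9 and 142 CPM in replicates 1 and 3. That library also had the lowest summed level of fat body markers, 161444 CPM. Of 9 salivary gland markers 0 were at 0 in every library, and 8 were tested. By the edgeR test described below, 8 of the 8 were called lower in InRi on 0.7 M sucrose, against 1.79% of all tested genes. On 0.15 M sucrose 2 were called lower, against 67 of all 8662 tested genes.

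Most odorant-binding protein genes had no counts or few counts in these fat bodies. Of the 43 genes, 15 had 0 counts in every library, which is 34.9%, against 14.5% of all 15222 genes. A count of 0 over all 12 libraries allows a level of up to 0.0580 CPM, taking 3 counts as the limit and covering counting error only. Some genes at 0 share exon bases with another gene in the annotation used for exon lengths. Obp47b shares 611 of 611 with CG7741, and Obp50b and Obp50c share 1648 of 1648 with each other. Obp57d shares 1488 of 1488 with Cpr57A, and Obp93a 492 of 591 with CG5793. How reads from shared bases were counted is not known, so 0 counts set no limit on the level of these genes. Another 19 genes had counts too low to test, between 1 and 52 over all libraries together, and 4 of these had 1 count in all. The remaining 9 passed the filter on low counts, and 7 of them reached a mean of 10 CPM in at least 1 group. A gene could pass this filter through the group in which it was high, so the 9 are not a sample of the family.

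Levels among the 9 genes spanned 4 orders of size when set per length of exon. Obp99b led with a mean of 44403 CPM per kb over the 12 libraries, the rank of 2 among 14894 genes with a known exon length. Obp99c followed at 2538 CPM per kb, with a rank of 28. Obp83ef, Obp56d and Obp44a formed a middle range, at 107, 89.4 and 73.0 CPM per kb. Obp49a averaged 41.7 CPM per kb, which came mainly from 1 group: 151 CPM per kb in InRi and 1.67 CPM per kb in control on 0.7 M sucrose, and 12.6 CPM per kb in InRi and 1.17 CPM per kb in control on 0.15 M sucrose. Obp83cd had 18.8 CPM per kb, Obp56a 6.59 CPM per kb and Obp83g 4.72 CPM per kb. Among the untested genes the highest value in any library was 10.4 CPM.

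**Figure D1:**
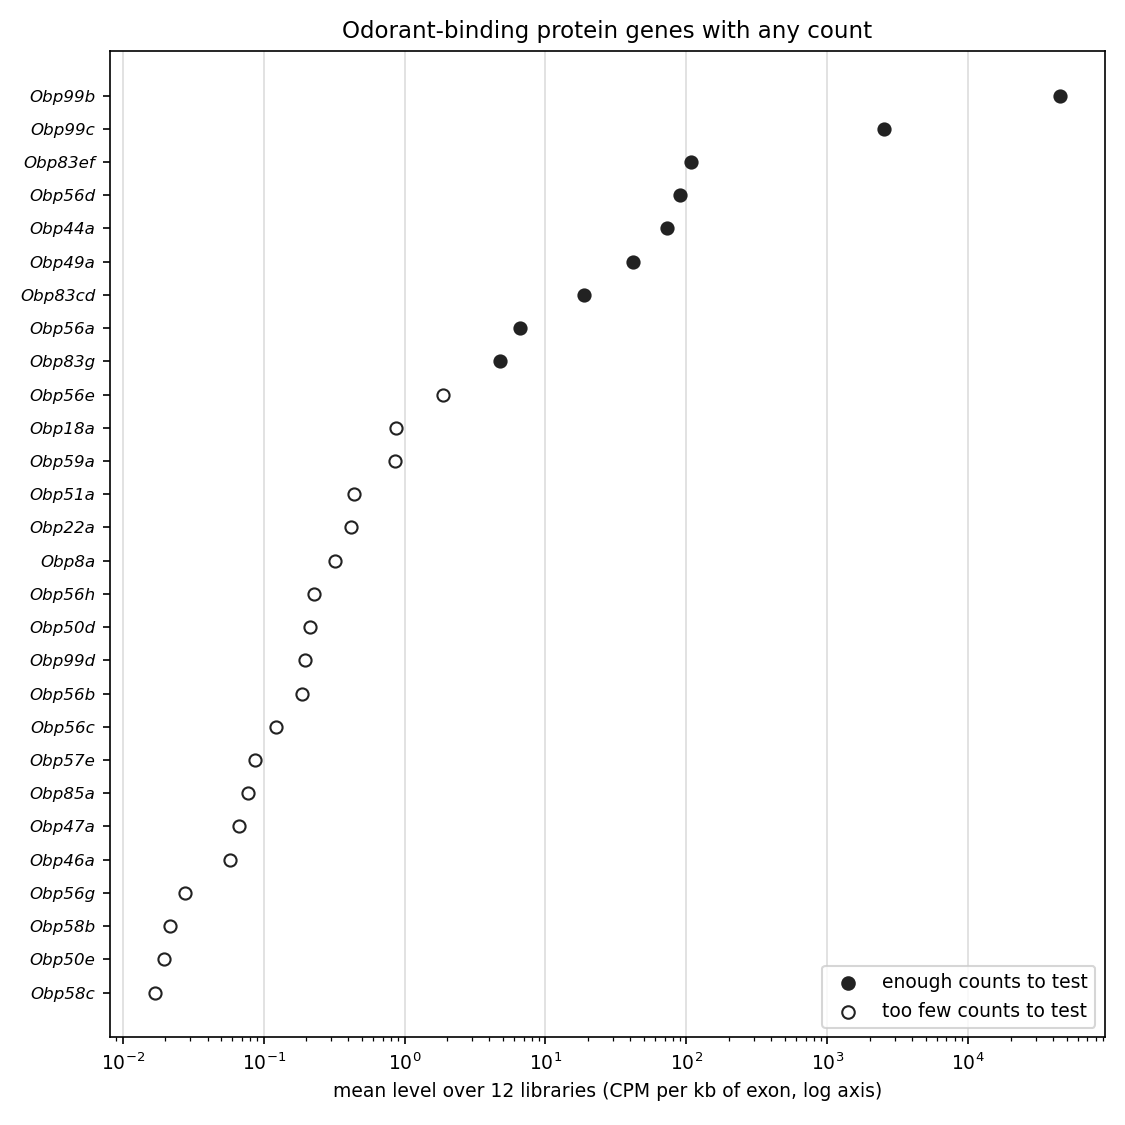
Mean level over the 12 libraries, in CPM per kb of exon on a log axis, for the 28 odorant-binding protein genes with any count; filled points had enough counts to test and open points did not. Obp99b at 44403 CPM per kb and Obp99c at 2538 CPM per kb sit far to the right of the rest.

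Neighbours in a cluster could differ widely in level. Of the 43 genes, 32 lay in 8 clusters, counted as genes of the family with no more than 2 protein-coding genes between neighbours, and 29 lay on chromosome arm 2R. In the largest cluster, the 9 genes Obp56a to Obp56i, 7 had counts but only Obp56a and Obp56d had 100 or more in all. The neighbours Obp83cd, Obp83ef and Obp83g each had 100 or more counts. In the cluster of Obp99c, Obp99d and Obp99b, the outer genes were the most abundant of the 43 while Obp99d had 5 counts in all. The clusters of Obp57a to Obp57c and of Obp19a to Obp19c had 0 counts throughout, and Obp57e, studied in adult leg taste organs for its part in the response to fatty acids of a host fruit, had 2.

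Comparisons were made with edgeR's quasi-likelihood test, fitted to all 8662 genes with enough counts and called at a Benjamini-Hochberg adjusted p under 0.05. On 0.7 M sucrose, 1 of the 9 genes was called higher in libraries labelled InRi than in control and 1 lower, where 3.63% of all tested genes were called higher and 1.79% lower, 5.41% in all. These were Obp49a, which rose, and Obp99b, which fell. On 0.15 M sucrose 0 of 9 were called, against 1.73% of all tested genes; 4 of 9 had an unadjusted p under 0.05, as did 18.8% of all genes, and DESeq2 called 2 of 9 and 6.74% of all genes. With the InRi effect averaged over both diets, a comparison added after the data were seen, 1 gene was called higher and 2 lower, against 6.23% and 5.13% of all tested genes. Those called lower were Obp99b and Obp99c.

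No member was called between sucrose levels in edgeR. In libraries labelled InRi, 0 of 9 genes were called between 0.7 M and 0.15 M sucrose, against 1.26% of all tested genes; 2 had an unadjusted p under 0.05, as did 11.4% of all genes, and DESeq2 called 1 of 9 and 3.61% of all genes. In control larvae 0 of 9 were called, against 0.277% of all tested genes. Of the 9, 0 had an unadjusted p under 0.05 and DESeq2 called 0, against 10.5% and 2.09% of all genes. Averaged over both genotypes, a comparison also added after the data were seen, 0 were called against 2.34% of all tested genes. Here 1 had an unadjusted p under 0.05 and DESeq2 called 0, against 15.6% and 5.58% of all genes. The diet by genotype interaction called 0 of 9 and 0% of all tested genes. For it 0 had an unadjusted p under 0.05 and DESeq2 called 0, against 5.26% and 0.197% of all genes. A test for any difference among the 4 groups called 2 of 9, Obp49a and Obp99b, against 9.55% of all tested genes; for Obp99b (edgeR adjusted p = 0.0288) this call was lost without any 1 of the 6 libraries on 0.7 M sucrose or without replicate 1 or 2 of InRi on 0.15 M sucrose (adjusted p up to 0.116).

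Most of the 9 genes had lower means in libraries labelled InRi. The log2 fold change of InRi over control was below 0 for 8 of 9 genes on each diet, with a median of -0.59 on 0.7 M sucrose and -0.79 on 0.15 M sucrose. Over all tested genes the medians were -0.04 and 0.03, and 53.3% and 48.0% of genes were below 0. The exception on both diets was Obp49a. Without replicate 2 of control on 0.15 M sucrose, the median on 0.15 M sucrose was -0.33, with 7 of 9 genes below 0. Without replicate 1 of InRi on 0.15 M sucrose it was -0.76, with 6 of 9 below 0. On 0.7 M sucrose 7 of 9 were below 0 without replicate 2 of InRi or replicate 1 of control on that diet. In each library the summed level of the family was made up mainly of Obp99b.

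**Figure D2:**
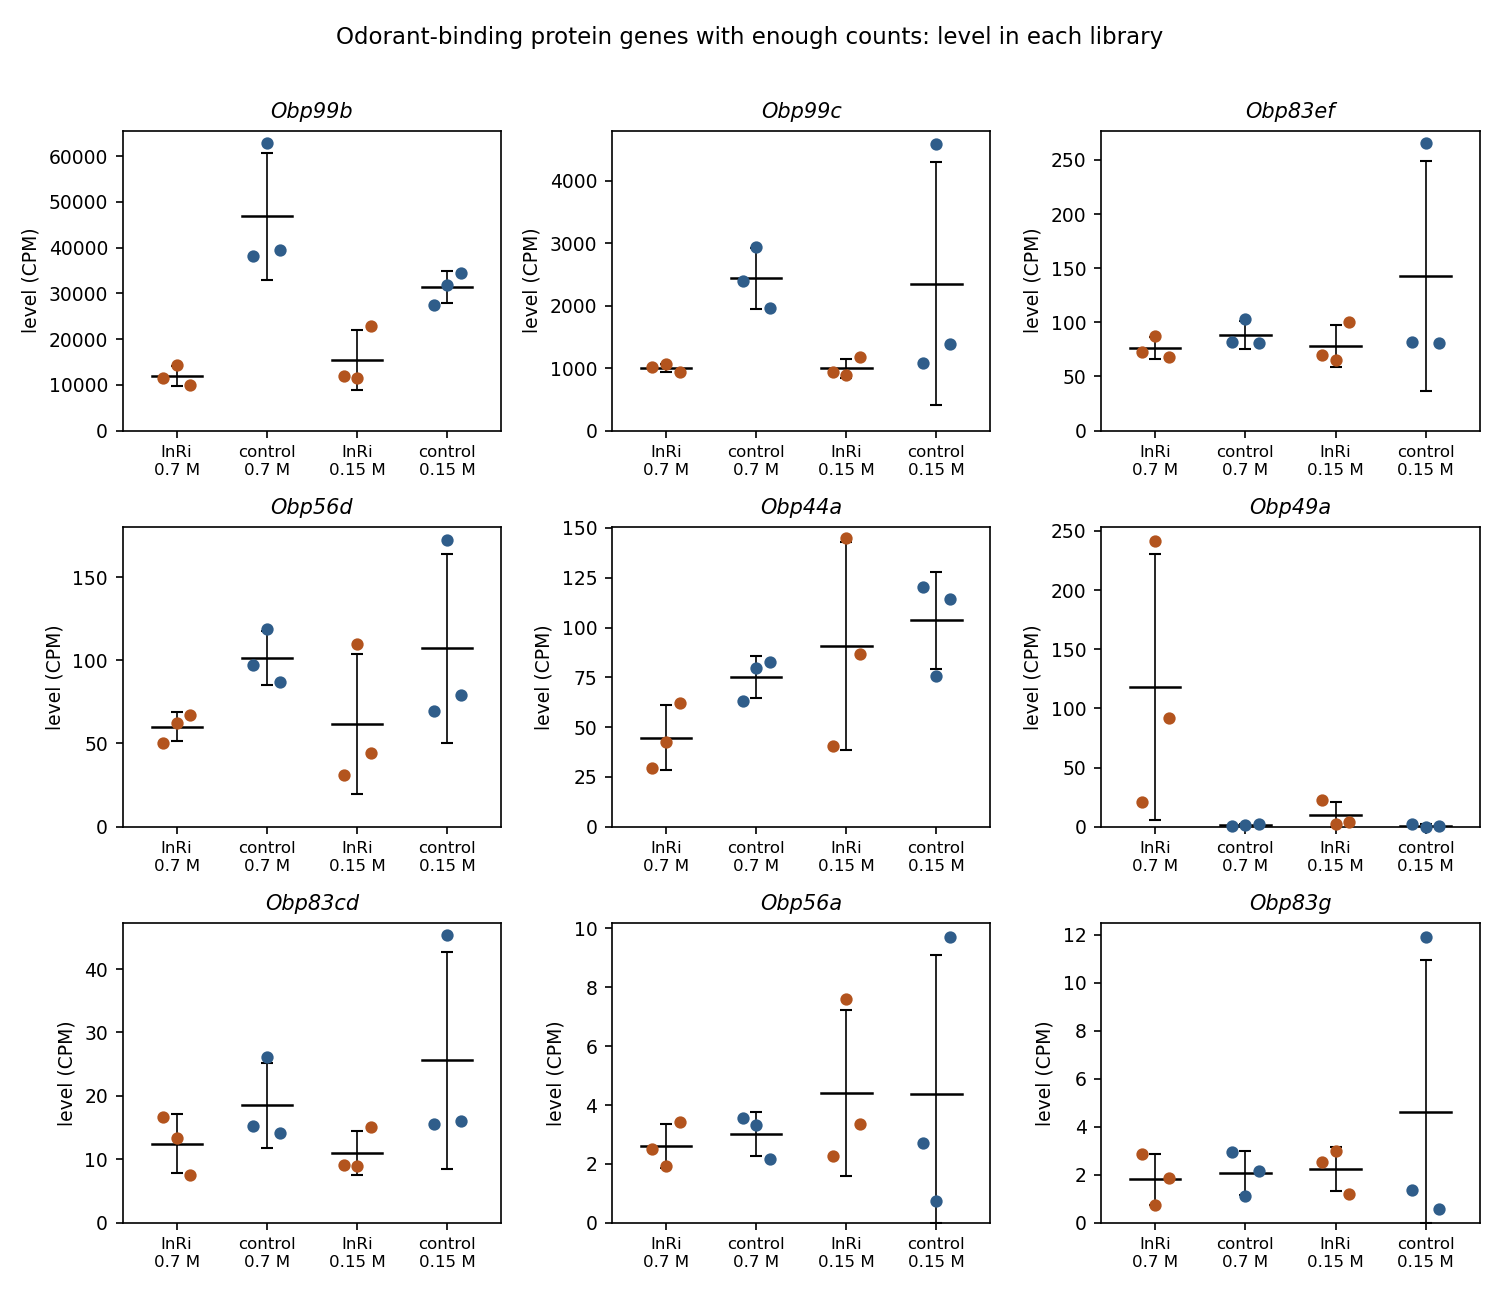
Level in CPM of the 9 tested odorant-binding protein genes in each of the 12 libraries, with InRi in orange and control in blue; lines mark group means and bars the SD over 3 libraries, cut at 0 where the SD exceeds the mean. Obp99b is lower in each InRi library than in each control library of the same diet, Obp99c is so on 0.7 M sucrose, Obp49a is above 20 CPM in the 3 InRi libraries on 0.7 M sucrose, and replicate 2 of control on 0.15 M sucrose is the highest library for Obp99c, Obp83ef, Obp56d, Obp83cd and Obp83g.

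Obp99b was among the most abundant messages of the fat body. Its protein belongs to a subfamily that lacks part of the usual set of cysteines, and in adult flies its transcript is known as a sex-biased product of fat cells in the head. By number of counts it ranked 10 to 12 among all genes in InRi and 3 to 4 in control on 0.7 M sucrose, and 7 to 10 in InRi and 5 to 8 in control on 0.15 M sucrose. It gave 1.12%, 1.15% and 1.02% of all counts in InRi libraries on 0.7 M sucrose, against 4.12%, 5.52% and 4.14% in control libraries. The shares on 0.15 M sucrose were 1.33%, 1.49% and 2.11% in InRi libraries, against 2.88%, 2.81% and 3.46% in control libraries.

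Obp99b had 11583, 14328 and 9997 CPM in InRi libraries on 0.7 M sucrose, against 38158, 62836 and 39366 CPM in control libraries. The groups did not overlap, with means of 11969 ± 2191 CPM in InRi and 46787 ± 13912 CPM in control. Obp99b fell by 1.97 on the log2 scale (SE 0.44, edgeR adjusted p = 0.0222), a 3.91-fold lower level in InRi. Being measured in bulk tissue, fewer cells of a type and less RNA per cell cannot be told apart here. The call rests on a margin that 1 library can remove. It was lost in 6 of 12 omissions of a library, when any of the 6 libraries compared was left out (adjusted p between 0.0557 and 0.118), with log2 fold changes of -2.09 to -1.70 over all omissions. The salivary gland markers given above were lower in InRi as well. The summed level of 10 muscle markers was also lower, at 1591 to 3747 CPM in InRi and 4786 to 5840 CPM in control. Of these 10, 0 were called in edgeR, with 1 at an unadjusted p under 0.05 and 0 by DESeq2. Over all genes these shares were 5.41%, 18.7% and 9.68%. The part of either list in the result was not tested.

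Obp99b on 0.15 M sucrose had 11949, 11444 and 22860 CPM in InRi libraries, against 27545, 31905 and 34535 CPM in control libraries. These groups did not overlap either, with means of 15418 ± 6450 CPM in InRi and 31329 ± 3530 CPM in control. The log2 fold change of -1.02 (SE 0.43) did not pass in edgeR (adjusted p = 0.235), while DESeq2 called it at -1.06 (adjusted p = 0.0246). Averaged over both diets the log2 fold change was -1.49 (SE 0.31, edgeR adjusted p = 0.0084), and this call held without any 1 library (adjusted p up to 0.0415). The difference between the InRi effects on the diets was -0.94 (SE 0.61) and did not pass (edgeR adjusted p = 0.895). Between control groups, the sucrose effect was 0.58 (SE 0.43, edgeR adjusted p = 0.636), and the 3 control libraries on 0.7 M sucrose were each above the 3 on 0.15 M sucrose.

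Obp99c, the neighbour of Obp99b in the same cluster and the same subfamily, also had lower means in InRi libraries on both diets. In larvae on 0.7 M sucrose it had 1020, 1059 and 933 CPM in InRi libraries, against 2391, 2943 and 1968 CPM in control libraries. In larvae on 0.15 M sucrose Obp99c had 945, 882 and 1172 CPM in InRi libraries, against 1078, 4589 and 1393 CPM in control libraries. The groups did not overlap on 0.7 M sucrose, and overlapped on 0.15 M sucrose. Replicate 2 of control on 0.15 M sucrose was the highest of all 12 libraries.

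Averaged over both diets Obp99c fell by 1.26 on the log2 scale (SE 0.33, edgeR adjusted p = 0.0271), a 2.39-fold lower level in InRi. The single diets gave -1.28 (SE 0.47, adjusted p = 0.150) on 0.7 M sucrose and -1.23 (SE 0.47, adjusted p = 0.192) on 0.15 M sucrose in edgeR, neither of them called. Leaving out replicate 2 of control on 0.15 M sucrose brought the 0.7 M comparison past the threshold (log2 fold change -1.26, adjusted p = 0.0013). The averaged call was lost in 8 of 12 omissions of a library, those of the 6 InRi libraries and of replicates 1 and 2 of control on 0.7 M sucrose (adjusted p up to 0.0807). Without replicate 2 of control on 0.15 M sucrose the log2 fold change on 0.15 M sucrose was -0.33.

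The ratio of Obp99b to Obp99c counts compares the neighbours within each library, so that library scaling drops out. It was 11.4, 13.5 and 10.7 in InRi libraries on 0.7 M sucrose, against 16.0, 21.4 and 20.0 in control libraries. In larvae on 0.15 M sucrose it was 12.6, 13.0 and 19.5 in InRi libraries, against 25.6, 6.95 and 24.8 in control libraries. The ratio was lower in each InRi library than in each control library on 0.7 M sucrose, and the groups overlapped on 0.15 M sucrose, where replicate 2 of control was the lowest of all 12.

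On the log2 scale the ratio differed by -0.68 on 0.7 M sucrose (InRi minus control, 2-sided exact permutation test, p = 0.1, the smallest value that 3 libraries against 3 allow; 0.4 adjusted over 4 comparisons). The difference was -0.15 on 0.15 M sucrose (exact permutation test, p = 0.8, adjusted 1). Between 0.7 M and 0.15 M sucrose it was -0.32 in InRi (exact p = 0.3, adjusted 0.6) and 0.21 in control (exact p = 1, adjusted 1). The ratio was chosen after the data were seen. With 3 libraries a group this test could not have passed a threshold of 0.05 in any of the 4 comparisons.

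**Figure D3:**
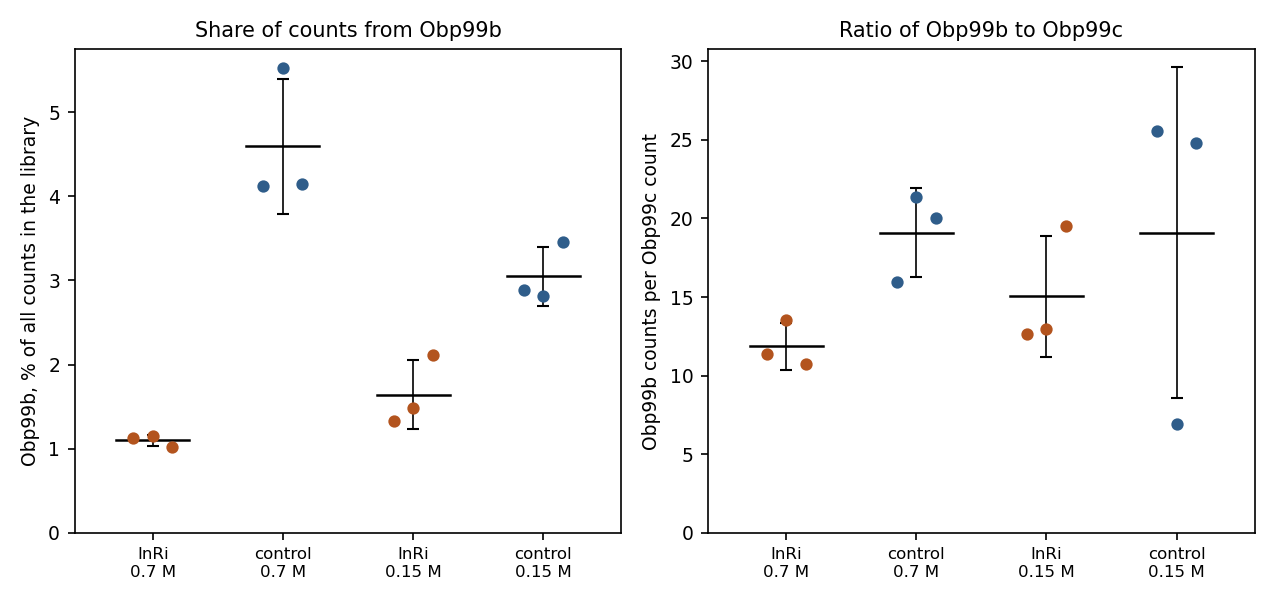
Left, Obp99b as a percentage of all counts in each library; right, Obp99b counts per Obp99c count in each library, with InRi in orange, control in blue, lines for group means and bars for the SD over 3 libraries. Obp99b gave 1.02% to 1.15% of counts in InRi and 4.12% to 5.52% in control on 0.7 M sucrose, and the ratio was lowest, at 6.95, in replicate 2 of control on 0.15 M sucrose.

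Obp49a was the 1 tested member that rose. It encodes a protein of adult taste organs, where it binds bitter compounds and lowers the response of sweet-sensing neurons. Its levels were 21.2, 241 and 91.6 CPM in InRi libraries on 0.7 M sucrose, from 119, 999 and 295 counts, against 0.39, 1.33 and 2.18 CPM in control libraries, from 2, 6 and 2 counts. The lower sucrose level, 0.15 M, gave 22.6, 2.64 and 4.26 CPM in InRi libraries, against 2.45, 0 and 0.29 CPM in control libraries. Each InRi library was above each control library of the same diet, and the InRi libraries differed widely among themselves.

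The means on 0.7 M sucrose were 118 ± 112 CPM in InRi and 1.30 ± 0.892 CPM in control, a log2 fold change of 6.85 (SE 1.24, edgeR adjusted p = 0.0069). The control group held 10 counts in all, so the size of this fold rests on few reads. The call was lost without replicate 1 (adjusted p = 0.0613) or replicate 2 (adjusted p = 0.0563) of control on 0.7 M sucrose. Means on 0.15 M sucrose were 9.83 ± 11.1 CPM in InRi and 0.913 ± 1.34 CPM in control, a log2 fold change of 3.10 (SE 1.21) that was not called in edgeR (adjusted p = 0.203) and was in DESeq2 (3.25, adjusted p = 0.0495). Omissions moved it to between 1.60, without replicate 1 of InRi on 0.15 M sucrose, and 5.39, without replicate 1 of control on 0.15 M sucrose. Averaged over both diets the log2 fold change was 4.97 (SE 0.85, edgeR adjusted p = 0.0028), a call kept without any 1 library (adjusted p up to 0.0149).

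Within libraries labelled InRi, Obp49a had a log2 fold change of 3.57 (SE 0.91) between 0.7 M and 0.15 M sucrose, which did not pass in edgeR (adjusted p = 0.0972). It passed with DESeq2 (adjusted p = 0.0118), without a filter on low counts (adjusted p = 0.0429), without replicate 1 of InRi on 0.15 M sucrose (adjusted p = 0.0435) and without replicate 2 of control on 0.15 M sucrose (adjusted p = 0.0185). Over all omissions of a library the log2 fold change ran between 2.51 and 5.08 and the adjusted p up to 0.455, the highest without replicate 2 of InRi on 0.7 M sucrose. The interaction of diet and genotype was 3.75 (SE 1.94, edgeR adjusted p = 0.895). Summed levels of 8 glia markers, 0 of them at 0 in every library, were 387 to 588 CPM in InRi and 185 to 247 CPM in control on 0.7 M sucrose, and 197 to 224 CPM in InRi and 144 to 176 CPM in control on 0.15 M sucrose. The glia markers did not move together: on 0.7 M sucrose Eaat1 and moody were called higher in InRi (log2 fold changes 1.53 and 1.76) and CG1732 lower (-2.40) in edgeR, with a median of -0.14 over the 8. Summed levels of 9 cuticle markers were 2928 to 6144 CPM in InRi and 1871 to 2262 CPM in control on 0.7 M sucrose, and 2376 to 3187 CPM in InRi and 1567 to 3844 CPM in control on 0.15 M sucrose. Of the 5 cuticle markers tested, Cpr49Ac was called higher in InRi on 0.7 M sucrose (log2 fold change 1.51), while the median of the 5 was -1.47. The part of either list in the Obp49a result was not tested. Markers of chemosensory neurons and their support cells summed to 3.56 to 4.66 CPM in InRi and 0.79 to 3.99 CPM in control on 0.7 M sucrose, with Gr21a at 0 in every library. On 0.15 M sucrose they summed to 3.65 to 4.66 CPM in InRi and 4.46 to 7.14 CPM in control. Of these 7 markers 1 was tested, and it was not called between InRi and control in edgeR on either diet.

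Obp44a encodes a carrier of fatty acids that is made in large amounts by glia of the nervous system. Its levels were 29.5, 42.5 and 62.1 CPM in InRi libraries on 0.7 M sucrose, against 63.1, 79.5 and 82.8 CPM in control libraries. Those on 0.15 M sucrose were 40.5, 145 and 86.6 CPM in InRi libraries, against 120.5, 75.9 and 114 CPM in control libraries. The groups met without overlapping on 0.7 M sucrose, and the InRi libraries spanned the whole control range on 0.15 M sucrose.

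The Obp44a comparisons did not pass in edgeR. The log2 fold change of InRi over control was -0.75 (SE 0.41, adjusted p = 0.370) on 0.7 M sucrose and -0.20 (SE 0.40, adjusted p = 0.817) on 0.15 M sucrose. The sucrose effect was -1.02 (SE 0.41, adjusted p = 0.349) in InRi and -0.47 (SE 0.41, adjusted p = 0.683) in control. Over the omissions of a library the effect in InRi ran between -1.37 and -0.51. The glia markers given above moved in both directions on 0.7 M sucrose, and their part in the Obp44a values was not tested. Exons of Obp44a share 205 bases with Pabp2 on the other strand, and with the strand of the libraries not given in the sources used here the reads of such a pair cannot be told apart; Pabp2 stood at 17.9 to 31.5 CPM.

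Obp83ef, Obp83cd and Obp83g are neighbours on chromosome arm 3R. The proteins of Obp83ef and Obp83cd each have a pair of odorant-binding domains. Obp83ef on 0.7 M sucrose stood at 72.7, 87.5 and 68.0 CPM in InRi libraries, against 81.4, 103 and 80.6 CPM in control libraries. Its values on 0.15 M sucrose were 69.6, 64.8 and 100.2 CPM in InRi libraries, against 81.5, 266 and 81.1 CPM in control libraries. Apart from replicate 2 of control on 0.15 M sucrose, the other 11 libraries kept to 64.8 to 103 CPM.

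The log2 fold change of Obp83ef was -0.22 (SE 0.41, edgeR adjusted p = 0.852) on 0.7 M sucrose and -0.86 (SE 0.41, adjusted p = 0.278) on 0.15 M sucrose, with -0.08 on 0.15 M sucrose when replicate 2 of control on that diet was left out. Obp83cd stood at 16.7, 13.3 and 7.45 CPM in InRi libraries, against 15.2, 26.1 and 14.2 CPM in control libraries on 0.7 M sucrose. Its values on 0.15 M sucrose were 9.03, 8.92 and 15.1 CPM in InRi libraries, against 15.5, 45.4 and 16.0 CPM in control libraries. Its groups overlapped on 0.7 M sucrose and came close without overlapping on 0.15 M sucrose. Obp83cd differed by -0.59 (SE 0.46, edgeR adjusted p = 0.565) on 0.7 M sucrose and -1.16 (SE 0.46, adjusted p = 0.207) on 0.15 M sucrose on the log2 scale, the second becoming -0.54 without replicate 2 of control on 0.15 M sucrose. Exons of Obp83ef and Obp83cd share 92 bases on opposite strands, so their counts may not be independent. Obp83g averaged 1.81, 2.08, 2.24 and 4.61 CPM in InRi on 0.7 M, control on 0.7 M, InRi on 0.15 M and control on 0.15 M sucrose, with the last mean drawn up by 11.9 CPM in replicate 2, and had an edgeR adjusted p of 0.879 for any difference among the groups.

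Obp56d and Obp56a were the members of the largest cluster that had enough counts to test. Obp56d stood at 50.3, 62.1 and 67.4 CPM in InRi libraries, against 97.4, 119 and 87.1 CPM in control libraries on 0.7 M sucrose. Larvae on 0.15 M sucrose had 31.2, 110 and 44.0 CPM in InRi libraries, against 69.8, 173 and 79.1 CPM in control libraries. The groups were apart on 0.7 M sucrose and overlapped on 0.15 M sucrose, where replicate 2 was the highest library of each group.

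In edgeR, Obp56d had a log2 fold change of -0.76 (SE 0.45, adjusted p = 0.412) on 0.7 M sucrose and -0.79 (SE 0.44, adjusted p = 0.356) on 0.15 M sucrose, neither called. The mean over both diets was -0.77 (SE 0.31, adjusted p = 0.135), and it was called without replicate 2 of InRi on 0.15 M sucrose (-1.12, adjusted p = 0.0194). Leaving out replicate 2 of control on 0.15 M sucrose gave -0.30 on that diet and -0.52 (adjusted p = 0.167) for the mean. The other omissions of a library that moved the 0.15 M value by over 1.5 times were those of InRi replicate 1 (-0.46) and replicate 2 (-1.49). With only the 6 libraries of the 0.7 M comparison in the fit, Obp56d and Obp99c joined Obp49a and Obp99b as called (adjusted p = 0.0142 for Obp56d and 0.0004 for Obp99c). In that fit 20.8% of all tested genes were called, against 5.41% in the main fit. Obp56a averaged 2.61, 3.02, 4.40 and 4.39 CPM in InRi on 0.7 M, control on 0.7 M, InRi on 0.15 M and control on 0.15 M sucrose, and the groups were not separated in edgeR (adjusted p = 0.711 for any difference).

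**Figure D4:**
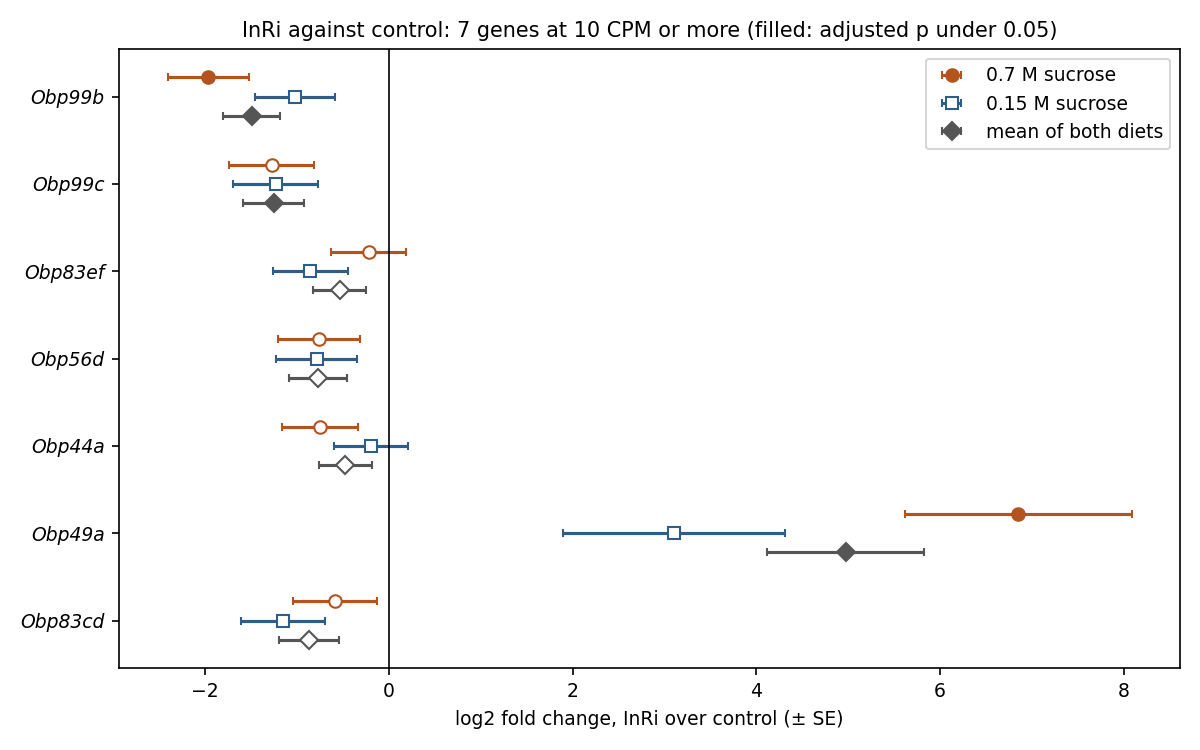
Log2 fold change of InRi over control, with SE bars, for the 7 odorant-binding protein genes at 10 CPM or more, on 0.7 M sucrose, on 0.15 M sucrose and as the mean of both diets; filled symbols have an edgeR adjusted p under 0.05. Obp49a lies to the right of 0, at 6.85 on 0.7 M sucrose, and the other 6 genes lie to the left, where only Obp99b and Obp99c have filled symbols.

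Genes that act with odorant-binding proteins in sense organs, and other families that carry small hydrophobic molecules, were taken as comparison lists. Of 60 odorant receptor genes counted, 14 had 0 counts throughout and 1 had enough counts to test. Of 63 gustatory receptor genes 23 had 0 counts and 2 could be tested, and of 62 ionotropic receptor genes 20 had 0 counts and 2 could be tested. In none of these lists did the summed level exceed 19.6 CPM in a library. On 0.7 M sucrose 0 of these 5 receptor genes were called between InRi and control in edgeR, against 5.41% of all tested genes. Here 0 had an unadjusted p under 0.05 and DESeq2 called 0, against 18.7% and 9.68% of all genes. On 0.15 M sucrose 0 were called in edgeR or DESeq2, and only the odorant receptor had an unadjusted p under 0.05, against 18.8% of all genes.

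The lipid carriers were more abundant than the receptors. The 8 Npc2 genes, whose proteins bind sterols and related lipids, summed to 565 to 723 CPM in InRi and 368 to 499.6 CPM in control on 0.7 M sucrose. Of 6 tested, 0 were called in edgeR on 0.7 M sucrose, with 1 at an unadjusted p under 0.05 and 1 by DESeq2, against 18.7% and 9.68% of all genes. On 0.15 M sucrose 0 were called in edgeR or DESeq2, with 2 at an unadjusted p under 0.05, against 18.8% of all genes. Between sucrose levels in InRi 0 were called in edgeR. Here 3 had an unadjusted p under 0.05 and DESeq2 called 1, against 11.4% and 3.61% of all genes. The 23 genes of takeout and its relatives, secreted carriers of the juvenile hormone binding type, summed to 168 to 330 CPM in InRi and 271 to 342 CPM in control on 0.7 M sucrose. Of these 23, 4 had 0 counts in every library, takeout itself among them. Of 8 tested, 0 were called in edgeR on 0.7 M sucrose, with 1 at an unadjusted p under 0.05 and 1 by DESeq2, against 18.7% and 9.68% of all genes. On 0.15 M sucrose 0 were called in edgeR or DESeq2, with 1 at an unadjusted p under 0.05. In each library Obp99b alone stood above the summed level of either list.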

How the data were processed

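The file analysed holds whole-number read counts per gene for 15222 genes in 12 libraries, as deposited by the authors. Per the labels' protocols, libraries were made from total RNA after RiboZero treatment to take out ribosomal RNA, and read on an Illumina machine. TopHat 1.3.2, Bowtie 0.12.7, Cufflinks 1.1.0 and build dm3 appear in the submitters' processing notes, with the counting tool and library strand not given in the sources used here. Table columns were matched to groups by title. The members and comparison lists were chosen with earlier results of these data known.

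Genes were kept with filterByExpr in edgeR 4.0.16 (8662 genes), scaled by TMM and fitted with 1 mean per group over all 12 libraries. Members with a group mean of 5 CPM or more, or a call, were named with every library's value, and others by counts and range. The script was tested on simulated data. Exon lengths and shared exon bases came from Ensembl release 115, whose build differs from the files', so no coordinates are given. Current names, chromosome arms and gene order came from a separate RefSeq gene list. Alternatives covered scaling, test (DESeq2 1.42.0), filter, replicate block, threshold, groups fitted and omission of each library. R 4.3.3, limma 3.58.1, Python 3.11.15 and matplotlib 3.10.9 were used. In single libraries 3 counts, taken as the limit of a count of 0, came to 0.423 to 3.27 CPM, for counting error only.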

Additional observations from a re-analysis of the deposited data

How the results depend on the processing

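The number of members called on 0.7 M sucrose between InRi and control (2) became 1 with the replicate block, 4 with only the 2 groups compared in the fit, and 0 to 3 over the omissions of a library: 0 without replicate 1 or 2 of control on 0.7 M sucrose and 3 without replicate 2 of control on 0.15 M sucrose. The share of all genes called moved too, with 5.41% becoming 3.52% with the block, 20.8% with only the 2 groups, 1.55% and 1.88% without replicate 1 or 2 of control on 0.7 M sucrose, and 18.5% without replicate 2 of control on 0.15 M sucrose. On 0.15 M sucrose it was 2 with DESeq2 in place of 0. Between sucrose levels in InRi it was 1 with DESeq2, with no filter on low counts or at an adjusted p under 0.1, and 0 to 1 over omissions, in place of 0. For any difference among the groups (2) it was 1 with the replicate block and 1 to 3 over omissions. The cause of these shifts was not tested, beyond the smaller number of libraries in an omission. The labels do not say that the same replicate numbers pair the libraries. Between libraries of the same number the correlation of deviations ranged from -0.37 to 0.16 over 18 pairs, with 2 over 0.1. Pairs of unlike numbers were not compared, so these values cannot decide whether the libraries were paired. Under the block Obp99b on 0.7 M sucrose had an adjusted p of 0.0566 and Obp99c over both diets 0.0568, both in edgeR. The members with enough counts (9) became 11 with a minimum count of 5 or 1 CPM in 3 libraries. Signs reversed for Obp44a on 0.15 M sucrose without replicate 1 of InRi (0.16; omissions gave -0.70 to 0.16), and for the log2 ratio of Obp99b to Obp99c on 0.15 M sucrose without replicate 1 (0.17) or 3 (0.14) of control (omissions gave -0.77 to 0.17) and between sucrose levels in control without replicate 2 on 0.15 M (-0.41; omissions gave -0.41 to 0.53). Of the other single-gene values 569 kept their side of the threshold and their direction where they had one, 27 lost a call and 13 gained one. These numbers pool values called and not called in the main fit, and only called ones could lose a call. Over 12 omissions of a library, Obp99b lost its call in 6 on 0.7 M sucrose and in 8 for any difference. Obp99c lost the averaged call in 8, and Obp49a lost its call on 0.7 M sucrose in 2. With 3 libraries per group and a library of 872755 counts, low members such as Obp56a and Obp83g are limited by depth.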

Other observations

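Transcripts of some other proteins that the fat body secretes into the blood also differed under the InRi label. Of 10 abundant ones tested in edgeR on 0.7 M sucrose, 1 was called higher and 1 lower, against 3.63% and 1.79% of all tested genes. The median log2 fold change of the 10 was -0.13. On 0.15 M sucrose 1 was called, against 1.73% of all tested genes. Averaged over both diets 3 were called, against 11.4%. Lsp1alpha, a larval storage protein, averaged 270 ± 113 CPM in InRi and 22875 ± 1930 CPM in control on 0.7 M sucrose (log2 fold change -6.41, SE 0.59, adjusted p = 0.0006). Fer2LCH, the ferritin light chain, rose in the same comparison, with 545 ± 98.5 CPM in InRi and 197 ± 58.7 CPM in control (log2 fold change 1.47, SE 0.29, adjusted p = 0.0114). Averaged over both diets Tsf1, an iron carrier of the blood, fell by 1.98 on the log2 scale (SE 0.36, adjusted p = 0.0039). The other members of that list did not pass on 0.7 M sucrose.

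Some untested members, singled out after their values were seen, had counts in a pattern. Obp59a, needed for the sense of humidity in adult flies, had 14 counts in replicate 2 of control on 0.15 M sucrose, 10.4 CPM, and 0 in the other 11 libraries. Its exons share 224 bases with CG30259 on the other strand, which had 0 counts in every library. Obp8a had 9 of its 11 counts in control libraries on 0.7 M sucrose, and Obp56e, the most abundant untested member, had 52 counts spread over 10 libraries. A further 8 genes of the family stand in the table under other symbols. Of these Pbprp3 (Obp83a) and Os-E (Obp83b), known from antennal pheromone-sensing hairs, had 0 counts. The pheromone carrier lush had 3 counts, and the highest total was 10, for Pbprp1 (Obp69a).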
